A study of Homo sapiens with 2 samples.

Results

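The 50 genes examined here encode Polycomb proteins and the enzymes that add methyl groups to histones or remove them, with close partners of those enzymes. They were taken from the guide count table by gene symbol, out of 19051 protein-coding targets, and all 50 were found there with 6 guides each, 300 guides in all. The guides come from the pooled GeCKO v2.0 CRISPR library, in which each guide directs Cas9 to cut a target gene. Cells of SK-OV-3, an established human ovarian cancer cell line, carried this pool and a 2-colour reporter for transcriptional readthrough (TRT), in which most of the coding sequence of COMMD3 and of its downstream neighbour BMI1 had been replaced by mCherry and EGFP. A multiplicity of infection of about 0.3 was used, and puromycin at 2 µg/mL selected the infected cells. The unsorted group is the puromycin-selected pool of SK-OV-3 reporter cells. The TRT-negative group is the part of that pool sorted as mCherry-positive and EGFP-negative, that is, cells in which transcription did not run on into the EGFP part. The control library is titled with both mCherry and EGFP, which might instead mean cells sorted as positive for both. It was read as unsorted because the design text sets unsorted cells against the sorted ones. Under either reading every ratio is TRT-negative over control.

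Each group was 1 library of guide DNA, with 12882989 reads in the unsorted and 12444427 reads in the TRT-negative library. There was no replicate, so no difference between the groups was tested. Intervals are exact 95% intervals that cover counting error only. PCR copies are not independent molecules, and the intervals say nothing of how cells or DNA templates were sampled. A guide could be seen only if cells carrying it had been sampled, and few guides were. Whether a guide had disabled its target was not measured.

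Polycomb repressive complex 2 (PRC2) methylates histone H3 on a lysine found at silenced genes, through EZH1 or EZH2 with EED and SUZ12. Polycomb repressive complex 1 (PRC1) attaches ubiquitin to histone H2A through RING1 or RNF2, paired with a PCGF protein. BMI1, whose coding sequence the reporter replaces, is itself a PCGF protein. Other enzymes methylate histone H3 at active promoters (the SETD1 and MLL complexes with WDR5, ASH2L, RBBP5 and DPY30), along transcribed gene bodies (SETD2 and the NSD family) or in heterochromatin (SUV39H1 and SUV39H2). Methyl groups are removed by the flavin-dependent LSD enzymes and by the JmjC family of dioxygenases.

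Guides of these genes were about as rare as other protein-coding guides in both libraries. In the unsorted library 30 of 300 guides had a read (10%, interval 6.85% to 14%), against 10.5% of all protein-coding guides. In the TRT-negative library 68 had a read (22.7%, interval 18.1% to 27.8%), against 22.6% of all. The 43 guides read only after sorting (14.3%, interval 10.6% to 18.8%) stood beside 12.6% of all. The 1000 non-targeting guides were read more often: 17.7% in the unsorted library, 35.6% in the TRT-negative library and 19% only after sorting. Their rows are repeated in the deposited counts (123411 rows for a library of 122411 guides), and each was entered once. These shares are therefore not like for like with those of targeting guides, and whether the repeat accounts for the difference was not tested. Of the 50 genes, 9 had no read from any guide (18.0%, against 22.1% of all protein-coding targets). These were PCGF1, PCGF5, CBX6, PHC1, SETD1B, WHSC1, EHMT2, KDM1B and KDM5B, and nothing can be said of their knockouts. A single guide was read for 19 genes, 2 guides for 13, 3 guides for 8, and 4 guides for SETD7 alone.

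**Figure D1:**
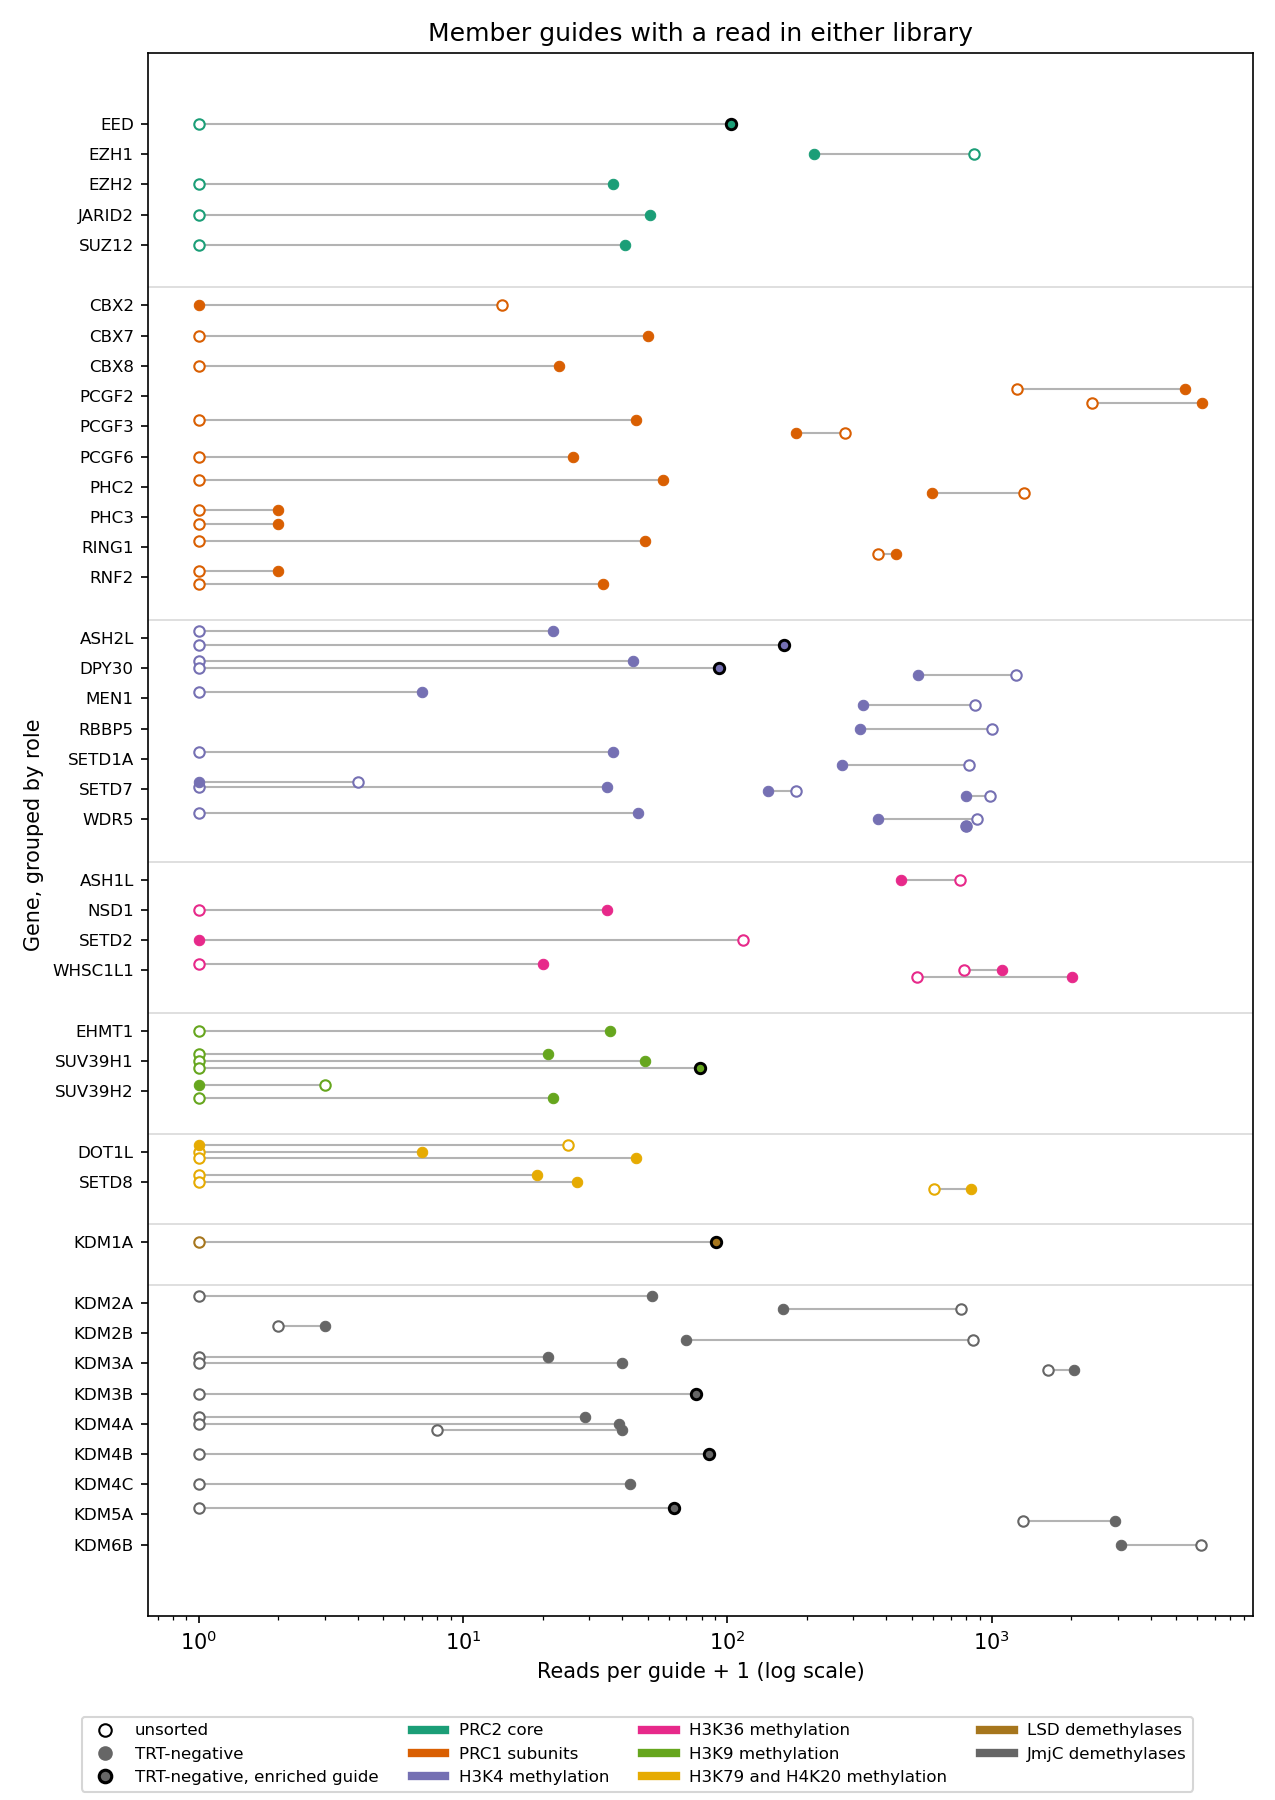
Joined circles show 1 guide; the x axis is log-scaled reads plus 1, open circles are the unsorted and filled circles the TRT-negative library, a black rim marks an enriched guide, and colours give the role. Most guides lie at 0 reads (plotted at 1) in the unsorted library and between 18 and 163 in the TRT-negative library, while both PCGF2 guides have at least 1249 reads in each.

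A guide was called enriched when log2 of its TRT-negative over its unsorted normalized count, with 1 added to each, exceeded 5.93, a value that 95% of non-targeting guides did not exceed. By this rule 8 of 300 guides were enriched (2.67%, interval 1.16% to 5.19%), against 2.87% of all protein-coding guides. They belonged to 8 different genes, or 16% of the 50 genes, and 16% of all protein-coding genes likewise had an enriched guide. None of the 50 genes had 2 enriched guides, which was the case for 1.15% of all. The share of enriched guides was thus close to that of the whole pool, and no gene of the group was carried by more than 1 such guide. All 8 had no unsorted read, so that each call turned on the TRT-negative count alone. No protein-coding guide with at least 30 unsorted reads reached the threshold, the highest log2 ratio among them being 3.76. The enriched guide with the fewest reads had 62. Among member guides without an unsorted read, the most abundant one that was not enriched had 56.

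**Figure D2:**
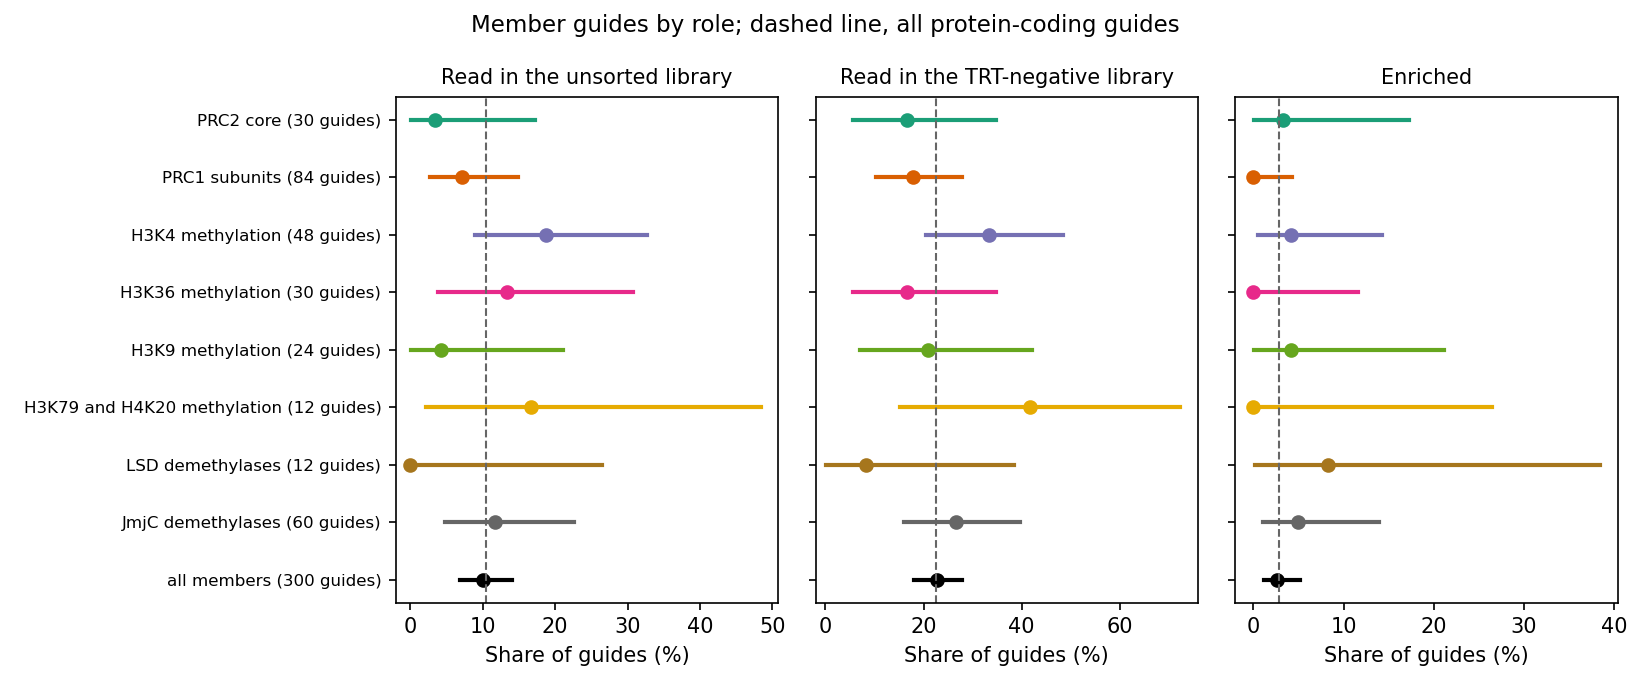
Points give the share of guides (%) in each role that had a read in the unsorted library, had a read in the TRT-negative library, or were enriched, with exact 95% intervals as bars and all protein-coding guides as a dashed line. The interval of every role includes the dashed line in all 3 panels, and over all 300 guides the points lie at 10%, 22.7% and 2.67%.

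PRC2 was seen through 1 guide for each of its 5 genes. EED, the subunit that binds the methyl mark and stimulates the enzyme (chromosome 11, 86244753 to 86287615 on GRCh38), had a guide that was unread before sorting and had 102 reads in TRT-negative cells. This was at least 35.3-fold higher against a floor of 3 unsorted reads and was the only enriched PRC2 guide. That floor covers read sampling only, here and for each such fold below.

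The other PRC2 genes gave smaller counts or went the other way. EZH2, the main methyltransferase of dividing cells, went from 0 to 36 reads. SUZ12, which holds the complex together, went from 0 to 40, and JARID2, which helps bring it to DNA, from 0 to 50. EZH1, the alternative methyltransferase (chromosome 17, 42700275 to 42745040), was the exception, with a well-represented guide that went from 858 to 212 reads. Its log2 ratio was -1.96 (interval -2.19 to -1.74), and 11.6% of the protein-coding guides read at least 30 times before sorting lay lower. The 2 methyltransferases of the complex therefore had values of opposite sign, each from 1 guide, and the EZH2 value lies on a count of 0.

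None of the 84 PRC1 guides was enriched. The upper limit of the interval for that share is 4.30%, above the 2.87% of all guides, so a lower share than in the pool was not detectable with 84 guides. Of the E3 ligases, RNF2 had 33 reads from 1 guide and 1 from another after sorting, and none before. RING1 had a guide with 48 reads from 0 and another that went from 371 to 433. Among the chromobox proteins, which read the methyl mark, CBX7 had a guide with 49 reads and CBX8 one with 22, both from 0, while the CBX2 guide went from 13 reads to 0. The polyhomeotic protein PHC2, which lets PRC1 complexes assemble into larger structures, had 1 guide at 0 and then 56 reads, just under the threshold, and a second that went from 1329 to 596. PHC3 had 1 read from each of 2 guides. The PCGF6 guide went from 0 to 25 reads, and those of PCGF3 from 0 to 44 and from 277 to 181.

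PCGF2 (MEL18), the PCGF protein closest to BMI1 (chromosome 17, 38733898 to 38749792), stood apart from these by its counts. One of its guides went from 1249 to 5385 reads and the other from 2387 to 6261. The log2 ratios were 2.16 (interval 2.07 to 2.25) and 1.44 (interval 1.38 to 1.51), a 4.48-fold and a 2.72-fold higher normalized count. Both were abundant before sorting, so neither value rests on a count of 0. Both guides belong to sub-library A, and its other 4 guides had no read in either library. PCGF2 held 11646 of the 31154 TRT-negative reads of the 50 genes. With it, the summed PRC1 reads were 2.42-fold higher after sorting, and without it the same sum was 0.777 of its unsorted level.

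Guides with at least 30 unsorted reads, called well read here, allow a ratio that does not depend on a count of 0 before sorting. There were 24 such guides of 300, for 20 of the 50 genes. Over all protein-coding targets there were 10616 of 114123, for 8205 of 19051 genes. Among the 24 member guides, only that of SETD2 had no read after sorting, so that its ratio rests on the added count of 1. The median log2 ratio of the 24 was -0.62, that of all 10616 well-read protein-coding guides -0.64, and that of 156 well-read non-targeting guides -0.89, with an SD of 1.33 among the latter. The ratio was up at least 2-fold for 4 guides (16.7%, interval 4.74% to 37.4%), against 12.1% of all, and down at least 2-fold for 10 guides (41.7%, interval 22.1% to 63.4%), against 39.2% of all. The members were thus spread much like the other targets. The central 95% of non-targeting guides ran from -2.73 to 1.91. Above it lay 2 member guides, the higher PCGF2 guide and 1 of WHSC1L1 (8.33%, against 5.66% of all), and below it lay 2, of SETD2 and KDM2B (8.33%, against 3.75% of all). The higher PCGF2 guide was still below the highest non-targeting guide, at 2.20.

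**Figure D3:**
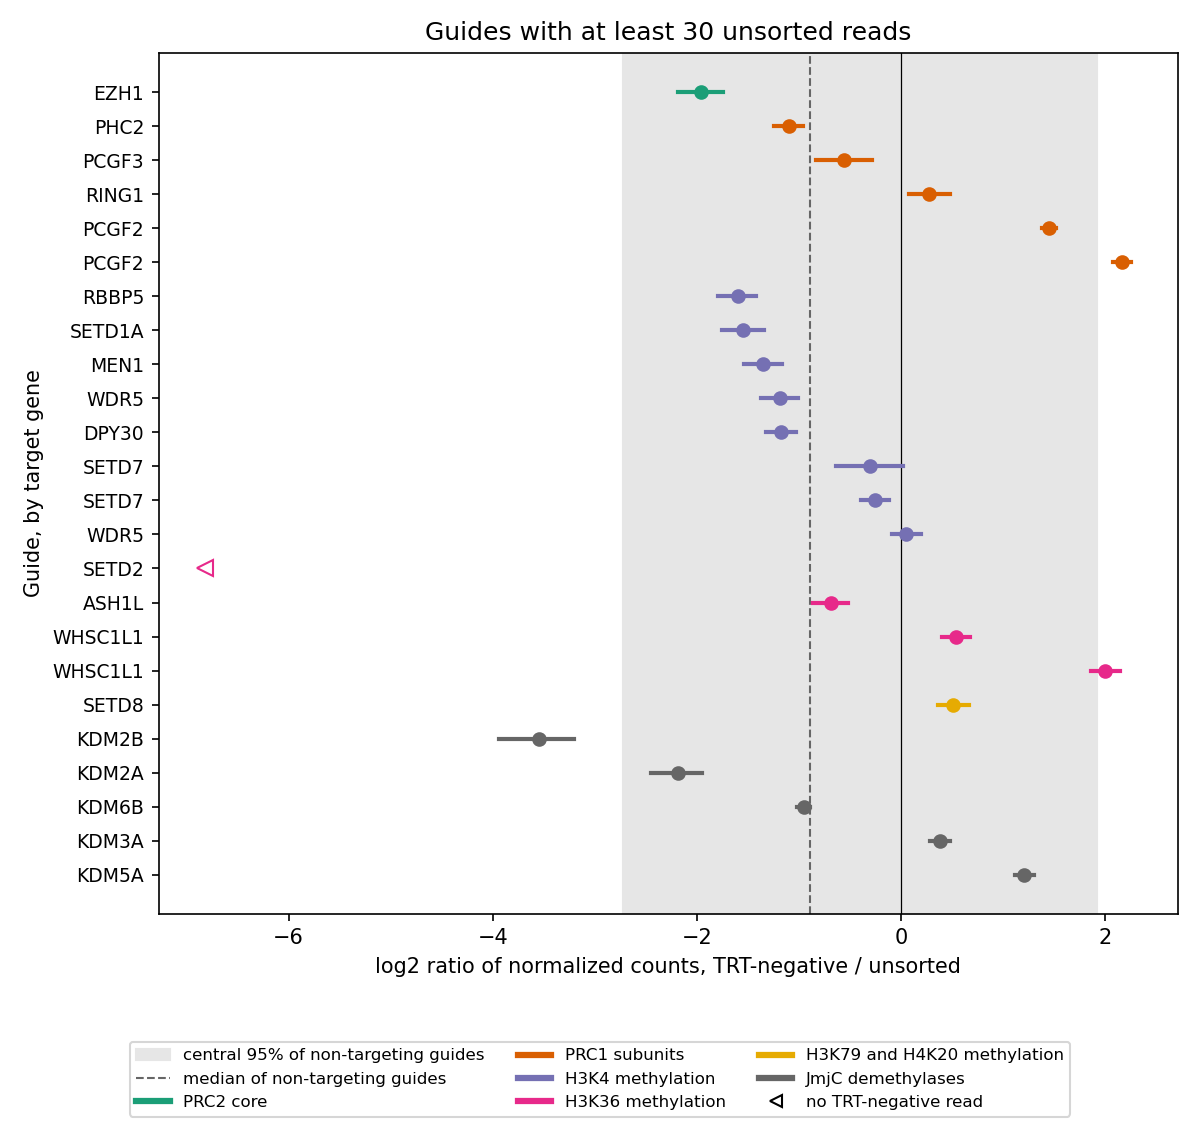
Points are the log2 ratios of the 24 well-read guides, TRT-negative over unsorted, with exact 95% counting intervals as bars, coloured by role, with the median (dashed line) and central 95% (grey) of 156 non-targeting guides. The open triangle is the SETD2 guide without a TRT-negative read, whose position is set by the added count of 1; 2 guides lie above the grey range and 2 below it.

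Among genes of H3K4 methylation, the mark of active promoters, 16 of 48 guides were read after sorting (33.3%, interval 20.4% to 48.4%), an interval that includes the 22.6% of all guides. ASH2L, a core subunit of the SETD1 and MLL complexes, had a guide with 163 TRT-negative reads and none before sorting. It was at least 56.4-fold higher against the floor and was the most abundant member guide read only after sorting. A second ASH2L guide went from 0 to 21. For DPY30, which binds ASH2L, an enriched guide went from 0 to 92 reads and a second from 0 to 43. Another DPY30 guide, well read, went the other way, from 1235 to 526. The guides of DPY30 thus did not move together.

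The 8 well-read guides of the H3K4 genes had a median log2 ratio of -1.18 and ran from -1.60 to 0.05. This range includes the medians of all well-read protein-coding guides (-0.64) and of non-targeting guides (-0.89). At least 2-fold down were 5 of the 8 (62.5%), against 39.2% of all and 47.4% of non-targeting guides. RBBP5, another core subunit, went from 1001 to 317 reads at a log2 ratio of -1.60 (interval -1.79 to -1.42). SETD1A, the catalytic subunit, went from 820 to 270 with 1 guide and from 0 to 36 with another. MEN1, encoding menin, which is bound by the MLL methyltransferases, went from 862 to 325 and from 0 to 6. The well-read guides of these 3 genes lay inside the central range of well-read non-targeting guides. WDR5, the scaffold that holds the core together, had 2 well-read guides that differed from each other. One went from 877 to 370 (log2 ratio -1.19, interval -1.37 to -1.01) and the other from 801 to 798 (0.05, interval -0.09 to 0.19), and its remaining read guide went from 0 to 45. For SETD7, a methyltransferase that also acts on proteins other than histones, the well-read guides went from 988 to 797 and from 181 to 141, and 2 more went from 0 to 34 and from 3 to 0.

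The H3K36 methyltransferases, which act on transcribed gene bodies, had no enriched guide among 30 (interval 0% to 11.6%), against 2.87% of all guides. SETD2, the enzyme that travels with elongating RNA polymerase II and makes the trimethyl mark (chromosome 3, 47016436 to 47164840), was seen through 1 guide with 114 unsorted reads and no TRT-negative read. Against a floor of 3 TRT-negative reads this was at least 36.6-fold lower. Among protein-coding guides that had 100 or more unsorted reads, 29 of 10170 (0.285%) had no read after sorting, as did 1 of 151 non-targeting guides. Loss from the sort was therefore rare among all guides with 100 or more unsorted reads, but was also found in a guide without a target. How often it occurred near 114 reads was not examined. The other 5 SETD2 guides had no read in either library.

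WHSC1L1 (now NSD3) had both of its well-read guides on the higher side. One went from 522 to 2008 reads (log2 ratio 2.00, interval 1.86 to 2.14) and the other from 784 to 1096 (0.54, interval 0.40 to 0.67), and its remaining read guide went from 0 to 19. The well-read pair lies in different sub-libraries. The other genes of this role had 1 read guide each or none: ASH1L went from 756 to 451 and NSD1 from 0 to 34.

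At least 2 well-read guides were found for 4 of the 50 genes, beside 1963 of 19051 protein-coding genes. These 4 show how far guides of 1 gene agreed. Both guides were up at least 2-fold for PCGF2, which held for 1.17% of the 1963 protein-coding genes with at least 2 well-read guides. Both had a ratio above 1 for PCGF2 and WHSC1L1, which held for 8.35% of those genes. The WDR5 guides differed, and the SETD7 guides stood near 1, at log2 ratios of -0.26 and -0.30. Scaling by the non-targeting guides, a shift of 0.29 on the log2 scale before 1 is added to the counts, put those of SETD7 at 0.04 and -0.01, and left the pairs of PCGF2 and WHSC1L1 above 1. PCGF2 was singled out after its values were seen, so its place among those genes is a description of these 2 libraries.

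Of 24 guides of the H3K9 methyltransferases, 5 were read only after sorting (20.8%, interval 7.13% to 42.2%), an interval that includes the 12.6% of all guides. SUV39H1, which builds heterochromatin, had 3 guides at 20, 48 and 78 reads after sorting and 0 before, the last of them enriched. It was the only member with 3 guides read only after sorting (2.00% of the 50 genes, against 3.20% of all protein-coding genes). At least 2 such guides were found for 9 of the 50 genes (18.0%, against 17% of all protein-coding genes). SUV39H2, its relative, went from 0 to 21 with 1 guide and from 2 to 0 with another, and EHMT1, the partner of EHMT2 in euchromatin, went from 0 to 35. No guide of these 4 genes was well read.

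The enzymes of H3K79 and H4K20 methylation had no enriched guide among 12 (interval 0% to 26.5%), against 2.87% of all guides. DOT1L, the H3K79 methyltransferase, had 2 guides read only after sorting, with 44 and 6 reads, and 1 that went from 24 to 0. SETD8 (now KMT5A), which places the first methyl group on H4K20, went from 606 to 832 with 1 guide (log2 ratio 0.51, interval 0.36 to 0.66) and from 0 to 26 and 0 to 18 with 2 others.

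Of the demethylases, 4 genes had an enriched guide. They were 3 of the 10 JmjC genes and 1 of the 2 LSD genes, beside 16% of all protein-coding genes. By guide, 3 of 60 JmjC guides were enriched (5%, interval 1.04% to 13.9%) and 1 of 12 LSD guides (8.33%, interval 0.211% to 38.5%). Both intervals include the 2.87% of all guides. KDM1A (LSD1), which acts on H3K4, had 1 guide, with 0 and 90 reads. KDM4B and KDM3B, JmjC enzymes that act on H3K9, had 1 guide each, with 84 and 75 TRT-negative reads from 0. KDM5A, an H3K4 demethylase, had a guide that went from 0 to 62, the enriched guide nearest to the threshold. It also had a well-read guide that went from 1312 to 2917 (log2 ratio 1.21, interval 1.11 to 1.30). KDM5A thus had both an enriched guide and a well-read guide up at least 2-fold, and its other 4 guides had no read. This pairing was noticed after the values were seen, and how many protein-coding genes share it was not counted.

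KDM2B and KDM2A lay at the other end. KDM2B binds unmethylated CpG islands and is a subunit of a PRC1 variant (chromosome 12, 121408461 to 121582279). Its well-read guide went from 847 to 69 reads, an 11.8-fold lower normalized count at a log2 ratio of -3.55 (interval -3.94 to -3.21), and only 1.55% of well-read protein-coding guides lay lower. Another KDM2B guide had 1 and 2 reads. The well-read guide of KDM2A, its close relative, went from 765 to 161 (log2 ratio -2.19, interval -2.45 to -1.95), inside the non-targeting range, while a second KDM2A guide went from 0 to 51.

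The remaining demethylases showed no common direction. KDM6B, which removes the Polycomb mark from H3, had the most unsorted reads of any member guide and went from 6214 to 3087. KDM3A went from 1639 to 2054 with 1 guide, and from 0 to 39 and 0 to 20 with others. KDM4A had guides with 38 and 28 reads from 0 and 1 that went from 7 to 39, and the KDM4C guide from 0 to 42.

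The counts of guides read only after sorting were of the usual size. Over the 43 such member guides they ran from 1 to 163 with a median of 38, and over all 14434 protein-coding ones the median was 35. Counts above the 163 of ASH2L were reached by 461 protein-coding guides, or 3.19% of those read only after sorting. At least 100 reads were found for 2 of the 43 (4.65%, against 8.73% of all).

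A further 72 genes of the same pathways were taken from lists of related factors. Of their 431 guides 11 were enriched (2.55%, interval 1.28% to 4.52%), again beside 2.87% of all. Well-read guides numbered 45 and had a median log2 ratio of -0.94, against -0.64 over all and -0.89 for well-read non-targeting guides. Of the 45, 2 were up at least 2-fold (4.44%, against 12.1% of all and 8.33% of non-targeting guides). Down at least 2-fold were 22 (48.9%, against 39.2% of all and 47.4% of non-targeting guides). CARM1, an arginine methyltransferase, was the only related gene with 2 enriched guides, which went from 0 to 90 and from 1 to 243 reads. Its well-read guides differed: 1149 reads became 191 in 1 of them, 577 became 824 in the next, and 247 became 227 in the last.

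Of 24 further PRC1 and PRC2 factors, 3 had an enriched guide, or 2.10% of their 143 guides, against 2.87% of all. RBBP4, the histone-binding protein of PRC2 and other complexes, went from 0 to 820 reads with 1 guide, but the study had picked it from these libraries. SCML2 went from 0 to 83 and ASXL3 from 0 to 82. None of the 12 well-read guides of this list was up at least 2-fold, against 12.1% of all and 8.33% of non-targeting guides. Down at least 2-fold were 8 (66.7%, against 39.2% of all and 47.4% of non-targeting guides). The 12 log2 ratios ran from -2.11 to 0.22, a range that includes the non-targeting median of -0.89. USP7, a deubiquitinase found with PRC1 variants, had the lowest log2 ratio of these, at -2.11. RYBP, which defines variant PRC1, went from 854 to 337, and BMI1 itself from 1172 to 384. The reporter keeps only a short part of BMI1, and whether this guide could cut the reporter was not tested.

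In the MLL complexes 2 of 72 guides were enriched (2.78%, interval 0.338% to 9.68%, against 2.87% of all). CXXC1, the CpG-binding subunit of the SETD1 complexes, had an enriched guide that went from 0 to 122. Another CXXC1 guide went from 3711 to 1612. The enriched guide of HCFC2 went from 0 to 66. Of the other methyltransferases, 5 of 132 guides were enriched (3.79%, interval 1.24% to 8.62%, against 2.87% of all), for CARM1, SUV420H2 (0 to 109), PRMT6 (0 to 102) and SMYD1 (0 to 74). Of the other demethylases, 1 of 66 guides was enriched (1.52%, interval 0.0384% to 8.16%, against 2.87% of all). It belonged to MINA, a ribosomal protein hydroxylase of the JmjC family, and went from 0 to 144. Another MINA guide went from 156 to 62. The HP1 proteins, which read the heterochromatin mark, had no enriched guide among 18 (interval 0% to 18.5%), against 2.87% of all. CBX5 went from 1272 to 517 and CBX3 from 248 to 243.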

How the data were processed

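Guide DNA of 1 unsorted and 1 TRT-negative library was amplified and sequenced by the authors. The submitters' notes name MAGeCK and hg38. No version and no rule for assigning reads to guides is given in the sources used here. Raw counts of reads per guide were deposited. The normalized values deposited by the authors are a signal, the raw count times 0.982 (unsorted) or 1.02 (TRT-negative). The tables list guides in different orders and were joined by guide identifier. A further 4 deposited tables hold the authors' own comparisons (scores, p-values, ranks, fold changes) and were not used.

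The 50 genes and all lists were chosen with earlier results of these data known. The ratio is log2((TRT-negative + 1)/(unsorted + 1)) of the normalized counts. The enrichment threshold used the 1000 non-targeting guides, each entered once although their rows are repeated in the deposited counts. Shares carry Clopper-Pearson 95% intervals, and ratios of 2 counts an exact conditional binomial interval. Folds against 0 used a floor of 3 reads. No test was run, since there was 1 library per condition. All 50 genes could be named. Counts are given for each read guide. Related genes were named for 2 enriched guides or for the 2 highest enriched guides of a list. USP7, RYBP, BMI1, CBX5, CBX3 and the remaining enriched related genes were named after their values were seen. Of 74 related genes 72 were found. Neighbouring table rows with identical nonzero counts, a proxy for guides of the same sequence, included 0 member rows. Gene positions are from RefSeq on GRCh38.p14, and 3 symbols were matched through synonyms. Guide sequences were not used here. Scripts were tested on simulated data. Tools were Python 3.11.15, pandas 2.3.3, numpy 2.4.6, matplotlib 3.10.9 and scipy 1.17.1.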

Additional observations from a re-analysis of the deposited data

How the results depend on the processing

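Of 66 values recomputed under other settings, 55 stayed within 1.5 times the stated count or within the stated interval. With the 99th percentile of non-targeting guides as threshold, 1 member guide, of ASH2L, was enriched in place of 8 guides of 8 genes, and over all protein-coding targets 0.499% of guides and 2.94% of genes were. Sub-library A alone (150 guides) held 19 guides read only after sorting (12.7%, against 13.5% of all protein-coding guides there). It held 3 enriched guides (2%, against 2.90%) in 3 genes and 5 well-read guides down at least 2-fold (38.5%, against 40.3%). Sub-library B held 24 (16%, against 11.8%), 5 (3.33%, against 2.84%) in 5 genes and 5 (45.5%, against 38.2%). Genes with an enriched guide were 8.46% of all in A and 8.23% in B. Well-read guides up at least 2-fold were 3 of 13 in A (23.1%, against 11.9%) and 1 of 11 in B (9.09%, against 12.3%). Fewer guides entered each of these counts than the main ones. Scaling by non-targeting guides moved the median log2 ratio of well-read member guides to -0.33 and that of all protein-coding guides to -0.34. It left 7 in place of 10 of the 24 well-read member guides down at least 2-fold. Over all well-read protein-coding guides that share likewise fell, from 39.2% to 28.0%. Without rows of identical counts, no member value changed. No paired analysis was possible because each condition had 1 library. With 22.7% of member guides read at best, the data bear on few guides per gene.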
